A study of Macaca fascicularis with 2 samples.

Results

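In the fetal ovary of the cynomolgus monkey (Macaca fascicularis), 214 meiotic female germ cells (FGCs) held RNA of FIGLA together with RNA of SYCP1. They were taken as the cells with at least 1000 UMIs (unique molecular identifiers, each standing for 1 captured RNA molecule), at least 2 UMIs of FIGLA, at least 2 UMIs of SYCP1, and fewer than 5 UMIs of GDF9, ZAR1 and ASTL summed in every 10000 UMIs. These FIGLA+ meiotic cells made up 1.19% (exact binomial interval 1.04–1.36) of the 17943 cells with at least 1000 UMIs, of 20967 cells in all. The levels of these 5 genes chose the cells, so they are given below only as a description. The study took whole ovaries at embryonic day 84 (E84) and at E116, from 1 fetus each, separated them into single cells with enzymes and made 1 library of 3′ ends per fetus from both of its ovaries. The barcodes of the deposited table end in 1 or 2, and nothing in the labels ties an ending to a stage. Stages were therefore not compared. For part of the genes and lists, values within each ending are printed beside the pooled ones. They are those of a set of barcodes whose origin the labels do not give. With 1 library per stage no test of a difference was possible. Levels are UMIs summed over the cells of a group in every 1000000 UMIs of that group (CPM), and their 95% intervals cover counting error only.

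A germ cell of the fetal ovary leaves mitosis and enters meiotic prophase, in which homologous chromosomes are joined by the synaptonemal complex and broken and repaired by recombination. SYCP1 builds the transverse filaments of that complex. The cell then arrests and grows as an oocyte inside a primordial follicle, for which FIGLA, a basic helix-loop-helix transcription factor, is needed in the mouse, where it also drives the genes of the zona pellucida, the coat of the egg. GDF9 is a growth factor that the oocyte secretes, ZAR1 binds the stored maternal mRNA, and ASTL is the egg protease ovastacin.

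For comparison, 4 groups of other cells were taken, the meiotic and premeiotic ones under the same maternal limit. FIGLA-less meiotic cells (692) had at least 2 UMIs of SYCP1 and none of FIGLA. FIGLA+ oocytes (234) had at least 2 UMIs of FIGLA and at least 5 of the 3 maternal genes in every 10000. Premeiotic cells (964) had at least 2 UMIs of STRA8, ZGLP1 and REC8 summed, fewer than 2 of SYCP1 and none of FIGLA. AMHR2+ cells (1907) had at least 2 UMIs of the anti-Müllerian hormone receptor and none of the germ cell genes DAZL and DDX4. They give the share of cells with a UMI of a germ cell gene they should lack. Since cells with any DAZL or DDX4 were left out, cells that took up germ cell RNA were partly removed, and these shares may be too low. Of the AMHR2+ cells, 2 also met the rule of the FIGLA+ meiotic cells. The median depth was 17815 UMIs in FIGLA+ meiotic cells, 6564.5 in FIGLA-less meiotic cells, 28137 in oocytes, 13356.5 in premeiotic cells and 10626 in AMHR2+ cells. Barcodes ending in 1 gave 68 of the FIGLA+ meiotic cells, 416 of the FIGLA-less ones and only 3 of the oocytes, and barcodes ending in 2 gave the other FIGLA+ cells, 276 FIGLA-less ones and 231 oocytes. The oocytes thus came almost wholly from ending 2, while the meiotic cells set against them came from both endings. Pooled ratios to oocytes therefore mix ending with group. The doublet caller Scrublet marked 0 cells and so did not work here. The 8% of cells with its highest scores held 9.35% of the FIGLA+ meiotic cells, 11.1% of the FIGLA-less ones and 6.84% of the oocytes, and the part of doublets in the results was not tested. No FIGLA+ meiotic cell carried 1 of the 27 barcodes that both endings share.

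The cells had the genes of the germ line. DDX4, the RNA helicase of germ cells, was found in 95.3% of them and DAZL, a germ cell RNA-binding protein, in 86.0%, genes that the AMHR2+ cells lack by their rule. MAEL of the piRNA pathway was found in 82.7% (4.51% of AMHR2+ cells) and BOLL, a relative of DAZL, in 44.4% (0.524%). SYCP3, an axial protein of meiotic chromosomes, was found in 96.7% (267 of 1907 AMHR2+ cells), but premeiotic cells and oocytes also showed it often, in 75.1% and 76.5%. Thinned to 1000 UMIs a cell, SYCP3 was found in 61.2% of FIGLA+ meiotic cells, 66.9% of FIGLA-less ones, 19.2% of premeiotic cells, 14.5% of oocytes and 2.41% of AMHR2+ cells.

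FIGLA and SYCP1 were low in most of these cells. FIGLA ran from 2 to 61 UMIs with a median of 5, and 54 cells held the minimum of 2. SYCP1 ran from 2 to 147 UMIs with a median of 10, and 25 cells held the minimum. In every 10000 UMIs the median cell had 4.11 of FIGLA (5.11 in ending 1, 3.91 in ending 2), 7.25 of SYCP1 (8.37 and 6.33) and 0.676 of the 3 maternal genes, which were at 0 in 75 cells. Among all cells, 609 had at least 2 UMIs of FIGLA and 1123 at least 2 of SYCP1. The 264 cells with both were 43.4% of the former and 23.5% of the latter, and 50 of these lay above the maternal limit.

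**Figure D1:**
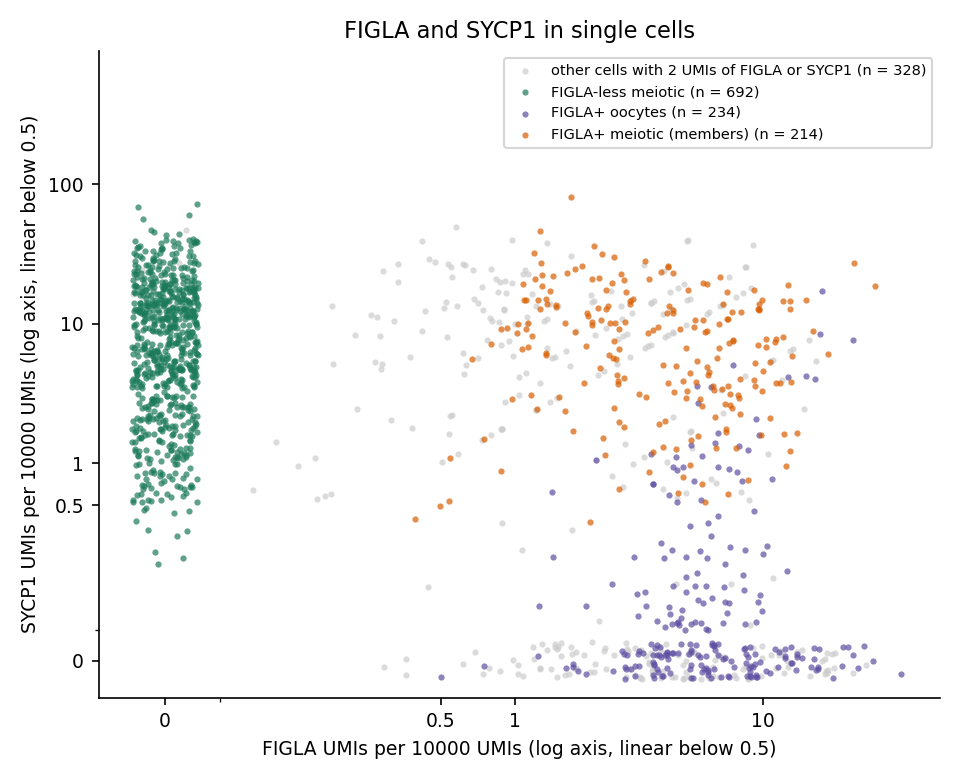
Each point is 1 cell with at least 1000 UMIs, placed by its UMIs of FIGLA (horizontal) and SYCP1 (vertical) in every 10000 UMIs, on axes that are logarithmic above 0.5 and linear below it, and coloured by group. The 214 FIGLA+ meiotic cells, with medians of 4.11 for FIGLA and 7.25 for SYCP1, lie between the FIGLA-less meiotic cells at the left edge and the FIGLA+ oocytes towards the lower right, as the rule fixes.

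Cells on either side of the rule's limits were alike in some genes and not in others. The 54 cells with 2 UMIs of FIGLA had 157 CPM of FIGLA and 1039 of SYCP1, and the 151 cells just outside, with 1 UMI of FIGLA, had 81.1 and 1071. SOHLH1 stood at 11.7 CPM inside and 10.2 outside that limit, and DND1 at 145.7 and 96.7. Other genes stepped at that limit: PRDM9 stood at 5.83 CPM inside and 30.6 outside, ZP2 at 8.74 and 0.537, SYCE3 at 654 and 1191, and SYCP3 at 1253 and 1957. At the other limit, the 25 cells with 2 UMIs of SYCP1 had 13.8 CPM of SPO11 and 102 of SYCE3, beside 12.5 and 128 in the 39 cells with 1 UMI. The 31 cells between 2.5 and 5 of the maternal genes in every 10000 had 25.97 CPM of SPO11, and the 19 cells between 5 and 10 had 17.3.

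Several transcription factors of the early oocyte were higher in FIGLA+ meiotic cells than in FIGLA-less ones. Of 11 in the list 7 were abundant enough to compare (a mean of at least 10 CPM over the groups), 5 were at least 2-fold higher with 10 CPM added to each level and none was 2-fold lower, and their median log2 ratio was 1.59. Over all 8591 genes so compared, 1.97% were 2-fold higher and 1.65% were 2-fold lower, and the median was −0.02. These shares were 1.19% and 1.30% within ending 1, and 2.34% and 2.65% within ending 2. A gene under 10 CPM in one group enters only through the other, where it is then high, so such counts describe the lists and support nothing. NOBOX, SOHLH1 and TBPL2 entered in this way, and of the 4 factors with at least 10 CPM in both groups, LHX8 and YBX2 were 2-fold higher. Summed, the list had 285 CPM beside 92.9, a log2 ratio of 1.62 (1.48–1.75), which was 1.25 within ending 1 and 1.72 within ending 2. FIGLA itself is not in that list, and the factors named next did not enter the rule.

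NOBOX, a homeobox factor that mouse oocytes need to form growing follicles, had 25.4 CPM (20.8–30.7) in FIGLA+ meiotic cells, 0.136 CPM in FIGLA-less ones, where it was 1 UMI, and 34.8 CPM in oocytes. Its ratio between the meiotic groups was 187 (32.8–7437). Ending 1 gave 22.9 CPM beside 0.287, and ending 2 gave 26.02 beside 0. A NOBOX UMI was found in 10 of 68 FIGLA+ cells of ending 1 (14.7%) and in 36 of ending 2 (24.7%), beside 0.524% of AMHR2+ cells. Its level thus rested on 21.5% of the cells.

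SOHLH1, another basic helix-loop-helix factor of early oocytes, had 56.4 CPM (49.5–64.0) beside 2.59 in FIGLA-less meiotic cells, a ratio of 21.8 (13.7–36.9). It was 35.5 CPM beside 2.01 within ending 1 and 61.8 beside 3.11 within ending 2. With 53.7 CPM in oocytes, the ratio of FIGLA+ meiotic cells to oocytes was 1.05 (0.895–1.23), an interval that holds equal levels. TBPL2, the TATA-binding protein of oocytes, had 24.7 CPM (20.2–29.9) beside 1.497, and 52.7 in oocytes.

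LHX8, a LIM-homeobox factor, was less restricted: 64.9 CPM (57.5–73.0) beside 12.3, a ratio of 5.30 (4.16–6.80), and 120 CPM in oocytes. YBX2, which binds stored mRNA, had 48.2 CPM beside 16.3, and 57.9 in oocytes. TAF4B, a germ cell subunit of the general factor TFIID, differed from the others in that oocytes had the least of it, 12.04 CPM, beside 40.0 in FIGLA+ and 23.8 in FIGLA-less meiotic cells. STAT3, the transducer of cytokine signals, was lower in FIGLA+ meiotic cells, at 15.8 CPM beside 32.1.

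RNA of oocyte factors and of meiotic prophase genes lay in the same cells. At least 1 UMI of NOBOX, SOHLH1, LHX8 or TBPL2 was found in 152 of the 214 cells (71.0%), and at least 1 UMI of SPO11, HORMAD1, MEIOB or C14orf39 in 209 (97.7%). Both were found in 149 (69.6%, 63.0–75.7). That is close to the share with an oocyte factor, since nearly every cell had a UMI of the meiotic genes. Those meiotic genes were also found in 88.7% of FIGLA-less meiotic cells, 75.2% of premeiotic cells, 62.0% of oocytes and 14.8% of AMHR2+ cells. The share with both was 12.9% (10.5–15.6) in FIGLA-less meiotic cells, 57.7% in oocytes, 10.9% in premeiotic cells and 0.944% in AMHR2+ cells. These shares also rise with depth, which differed between the groups. Thinned to 1000 UMIs a cell, SOHLH1 was found in 6.07% of FIGLA+ and 0.434% of FIGLA-less meiotic cells, and SPO11 in 7.48% and 8.67%.

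The egg coat genes ZP2 and ZP4 were below their oocyte level. ZP2 had 22.8 CPM (18.5–27.8) in FIGLA+ meiotic cells, 1.22 in FIGLA-less ones and 69.8 in oocytes, and it was 28.1 CPM in ending 2 but 2.29 in ending 1, where FIGLA-less cells had 1.15. ZP4 was 2.82 CPM beside 2.45, with 67.2 in oocytes, 23.8-fold (13.54–46.4) above the FIGLA+ meiotic cells. ZP1 was at 0.470 CPM, below the 0.705 CPM that 3 UMIs make in this group. ZP2 and ZP4 thus differed from each other: ZP2 alone was higher in FIGLA+ than in FIGLA-less meiotic cells. Summed, the zona genes had 26.1 CPM beside 3.81.

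Of the genes for secreted and surface signals, 1 of the 2 compared was 2-fold higher. That was JAG1, the Notch ligand of the oocyte, at 58.8 CPM (51.7–66.5) beside 13.47, and at 464 in oocytes. Its level rested on few cells: the 5 with the most held 48.0% of its UMIs, and ending 1 gave 16.0 CPM beside 11.47. KIT, the receptor of the somatic KIT ligand, had 63.0 CPM beside 35.1, and 117 in oocytes.

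Of 18 maternal-effect and egg cytoplasm genes 4 could be compared with FIGLA-less cells, and 2 were higher. OOEP, of the subcortical maternal complex, had 72.9 CPM beside 29.0. UCHL1, an abundant deubiquitinase of oocytes, had 232 CPM beside 92.9, and 447 in oocytes. Against oocytes the whole table ran otherwise: 12.3% of 8319 genes were at least 2-fold higher in FIGLA+ meiotic cells and 7.99% were at least 2-fold lower, with a median log2 ratio of 0.18. In that comparison 11 of 14 maternal-effect genes were lower and none was higher, but 7 of the 14 had under 10 CPM in 1 of the groups, and of the 7 others 4 were lower. Maternal genes also helped to choose the oocytes. PADI6, a protein of the egg's cytoplasmic lattices, had 7.99 CPM (5.54–11.2) in FIGLA+ meiotic cells and 883 in oocytes, a 110-fold difference (79.0–160). NLRP14 had 6.82 CPM beside 160 in oocytes, and NPM2, the histone chaperone of the egg, 13.2 beside 137.

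**Figure D2:**
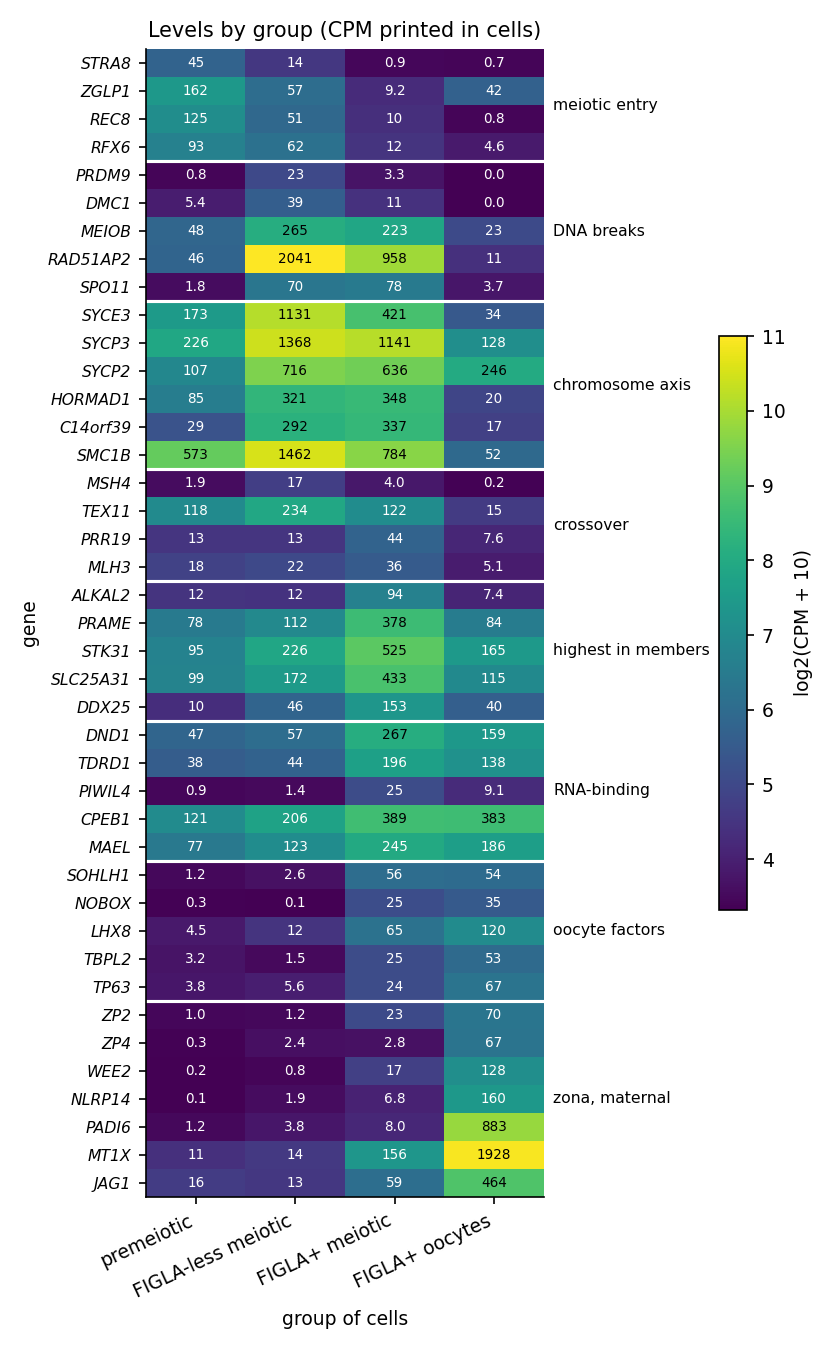
Heat map of 41 genes (rows, grouped by role) in premeiotic cells, FIGLA-less meiotic cells, FIGLA+ meiotic cells and FIGLA+ oocytes (columns), coloured by log2(CPM + 10), with the CPM printed in each cell of the map. NOBOX and SOHLH1 were near the oocyte level in FIGLA+ meiotic cells while PADI6 and ZP4 were near that of FIGLA-less ones, and the pooled SPO11 and HORMAD1 levels of FIGLA+ meiotic cells (78.3 and 348 CPM) were close to those of FIGLA-less ones (70.1 and 321).

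Genes of the synaptonemal complex were close to their FIGLA-less level in FIGLA+ meiotic cells, with 1 exception. Of its 14 genes compared with FIGLA-less cells none was 2-fold higher and 1 was lower, at a median log2 ratio of −0.18. Against oocytes 11 of 13 were higher, at a median of 2.05. SYCP1 is in neither count. SYCP3 had 1141 CPM (1109–1174) beside 1368 in FIGLA-less cells and 128 in oocytes. HORMAD1, which marks unsynapsed axes, had 348 CPM (330–366) beside 321, and 20.2 in oocytes. C14orf39, a protein of the central element also called SIX6OS1, had 337 CPM beside 292, and 17.4 in oocytes. The exception was SYCE3, also of the central element, at 421 CPM (402–441) beside 1131, a ratio of 2.68 (2.55–2.83) in favour of FIGLA-less cells. SYCE3 was 988 beside 1723 within ending 1 and 275 beside 596 within ending 2, so that the endings differed more than the groups did.

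Most genes of break formation and strand exchange were within 2-fold. None of 18 was 2-fold higher in FIGLA+ than in FIGLA-less meiotic cells and 3 were lower, at a median of −0.22. The summed list had 3292 CPM beside 4738, a log2 ratio of −0.53 (−0.55 to −0.50), and this was −0.27 within ending 1 and −0.30 within ending 2. With cells taken from 1 UMI each of FIGLA and SYCP1 the ratio turned to 0.46. That setting also took FIGLA-less cells from 1 UMI of SYCP1, so both groups changed. SPO11, the enzyme that cuts the DNA, had 78.3 CPM (70.1–87.1) beside 70.1, a ratio of 1.12 (0.970–1.28) whose interval holds equal levels, and 3.70 in oocytes. Ending 1 gave 63.0 CPM beside 63.6, and ending 2 gave 82.2 beside 75.9.

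In the pooled groups, the genes lower by 2-fold were PRDM9, DMC1 and RAD51AP2. PRDM9, the histone methyltransferase that places the breaks, had 3.29 CPM (1.80–5.52) beside 22.6, and was 11.46 beside 36.1 in ending 1 and 1.18 beside 10.4 in ending 2. DMC1, the meiotic recombinase, had 11.3 CPM (8.32–14.96) beside 39.3, and was 25.2 beside 59.6 and 7.69 beside 21.0 in the endings. Oocytes held 0 UMIs of either gene. RAD51AP2 was far more abundant, at 958 CPM beside 2041, and had 10.9 in oocytes. It was 2118 beside 2964 within ending 1 and 658 beside 1207 within ending 2, short of 2-fold in each. It turned to the higher side (log2 ratio 0.43) with cells of both groups taken from 1 UMI. MEIOB, SPATA22 and BRCA2, which act on single-stranded DNA after the cut, stood at 223, 393 and 308 CPM beside 265, 378 and 282, so that each was within 2-fold.

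Of the crossover genes 1 of 13 was higher and none was lower, at a median of −0.39. That gene was PRR19, a crossover factor of mouse meiosis, at 44.4 CPM beside 12.5 in FIGLA-less cells. MLH3, of the complex that resolves crossovers, was 36.0 CPM beside 22.5. The earlier MSH4, which holds recombination intermediates, was 4.00 beside 16.7, and TEX11, which also acts on crossovers, 122 beside 234. Among 7 cohesin genes none was higher and 1 was lower, at a median of −0.73. This was REC8, the meiotic kleisin, at 10.3 CPM beside 50.9, and at 125 in premeiotic cells, which REC8 itself helped to choose. REC8 was 14.9 beside 36.7 within ending 1 and 9.17 beside 63.7 within ending 2. Among cells with 200 to 3000 genes REC8 was on the higher side, with a log2 ratio of 0.49. SMC1B had 784 CPM beside 1462, and 51.6 in oocytes. It was 1198 beside 1627 within ending 1 and 677.5 beside 1314 within ending 2.

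Genes of meiotic entry differed among themselves. Of 8 compared with FIGLA-less cells none was higher and 2 were lower, at a median of −0.56, and the list summed to 665 CPM beside 991, with 443 in oocytes. The 2 lower genes were ZGLP1, a GATA-like factor of the oogenic fate, at 9.17 CPM beside 56.6, and RFX6 at 12.5 beside 62.5. RFX6 was 8.02 beside 11.2 within ending 1 and 13.6 beside 109 within ending 2, so its difference came mostly from ending 2. Among cells with 200 to 3000 genes RFX6 was on the higher side (0.19). STRA8, the retinoic acid target that opens meiosis, came to 4 UMIs or 0.940 CPM (0.256–2.41), beside 13.7 in FIGLA-less cells and 44.6 in premeiotic cells, and its mean was under the limit for comparing. MEIOC, which holds cells in prophase and is counted below with the RNA-binding genes, was still at 149 CPM beside 245, and at 6.02 in oocytes.

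**Figure D3:**
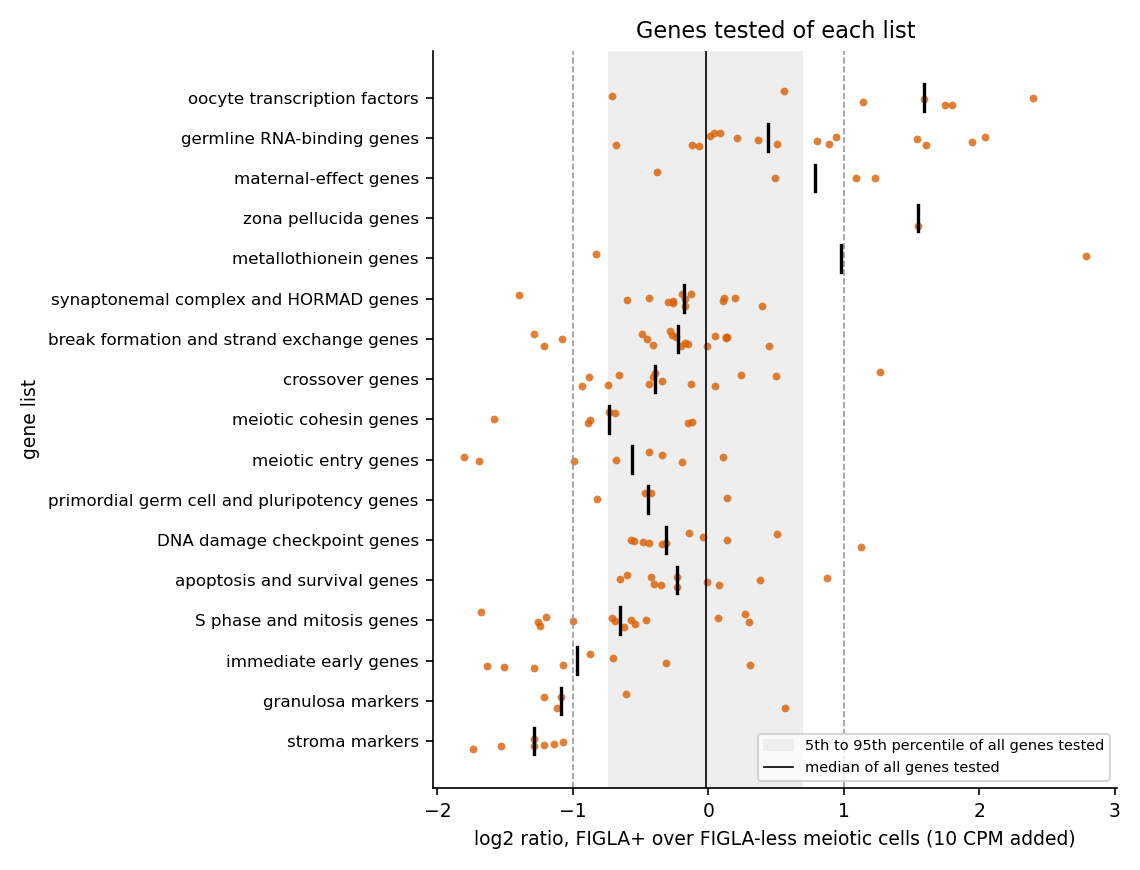
Log2 ratio of FIGLA+ over FIGLA-less meiotic cells (10 CPM added to each level) for every compared gene of 17 lists, with 1 point per gene, a bar at each list's median, a grey band from the 5th to the 95th percentile of all 8591 genes and dashed lines at 2-fold. Points of the oocyte factors lie mostly right of the dashed line (median 1.59), those of the synaptonemal complex lie around 0 (median −0.18) and those of the stroma lie left of it (median −1.29).

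Some genes of germ cell RNA control were higher. Of 16 that bind RNA or make piRNAs, the small RNAs that silence transposons, 4 were 2-fold higher than in FIGLA-less cells and none was lower, at a median of 0.44, and against oocytes 6 were higher and none was lower, at a median of 0.84. Among genes with at least 10 CPM in both groups, 3 of 15 were higher than in FIGLA-less cells, beside 1.27% of all such genes. Against oocytes 3 of 12 such genes were higher, beside 10.4% of all. PIWIL4 entered only through the FIGLA+ meiotic cells. DND1, an RNA-binding protein that germ cells need to survive, had 267 CPM (251–283) beside 57.1 in FIGLA-less cells, 159 in oocytes and 46.8 in premeiotic cells. It was 202 beside 51.9 within ending 1 and 283 beside 61.9 within ending 2, and a UMI was found in 87.4% of the cells. TDRD1, a Tudor scaffold of the piRNA granule, had 197 CPM (183–210) beside 43.5, a ratio of 4.51 (3.96–5.15), and 138 in oocytes. PIWIL4, a PIWI protein of the nucleus, had 24.7 CPM beside 1.36, and 9.14 in oocytes. The helicase DDX25 completes the 4.

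The other piRNA genes did not move alike. PIWIL1 and PIWIL2 were at 71.9 and 56.4 CPM beside 71.3 and 62.2, and the helicase MOV10L1 was at 77.1 beside 71.6. MAEL was 245 beside 123, a ratio of 2.00 (1.82–2.19). CPEB1, which holds mRNAs for later translation, had 389 CPM beside 206, and 383 in oocytes. DDX4 was 501 beside 348, and DAZL was 207 beside 201.

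A few genes were higher in FIGLA+ meiotic cells than in every germ cell group they were set against. By a rule of at least 2-fold over FIGLA-less meiotic cells, oocytes and premeiotic cells alike and at least 20 CPM, 16 genes of 6472 (0.247%) were highest in them, 15 of these with a symbol. The same rule gave 0.198% for FIGLA-less meiotic cells, 7.97% for oocytes and 0.344% for premeiotic cells, so that such genes were rare in both meiotic groups. Only 4 of 4965 genes (0.0806%) were 2-fold lower in FIGLA+ meiotic cells than in all of those groups. Within ending 2 all 16 genes were higher than in FIGLA-less cells, oocytes and premeiotic cells, by at least 2-fold for 15 of them. Within ending 1, where oocytes were too few to compare, all 16 were higher than in FIGLA-less and premeiotic cells, by at least 2-fold for 10. The next highest group was the FIGLA-less meiotic cells for 10 genes and the oocytes for 4. With cells of matched depth the count was 7.

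ALKAL2, a ligand of the receptor ALK, stood out most: 93.6 CPM, 7.74-fold (6.49–9.27) above the next group, the premeiotic cells. It was 35.5 CPM beside 6.02 in FIGLA-less cells within ending 1, and 109 beside 17.4 within ending 2. PRAME, a cancer-testis antigen from a family of many similar copies among which reads may be split, had 378 CPM, 3.36-fold (3.09–3.66) above FIGLA-less cells, and was 196 beside 90.6 and 425 beside 132 in the endings. DDX25, a germ cell RNA helicase, had 153 CPM, 3.33-fold (2.91–3.81) above FIGLA-less cells, with 140 beside 48.2 and 156 beside 43.8 in the endings. STK31, a germ cell protein with a Tudor domain, had 525 CPM, 2.32-fold (2.18–2.48) above the next group, and 549 beside 231 and 518 beside 221 in the endings.

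SLC25A31, the germ cell ADP/ATP carrier of mitochondria, had 433 CPM, 2.51-fold (2.34–2.70) above FIGLA-less cells. SPINK2, a serine protease inhibitor, had 259 CPM, ZPBP, known as a zona-binding protein of sperm, 174, and the paraoxonase PON3 129. CAPRIN2, an RNA-binding protein, had 186 CPM, 2.40-fold above oocytes, which were next, as they were for the chromatin reader L3MBTL3 (107 CPM, 2.80-fold), the circadian repressor CIART (98.5, 2.75-fold) and the secreted PROK2 (32.7, 3.36-fold). PRR19 of the crossover list was also 1 of these genes, and RASA3 (65.6 CPM) and the homeobox gene SHOX2 (30.8 CPM) complete them. CAPRIN2 was on the lower side of oocytes (−0.12) with cells of up to 10% mitochondrial UMIs, and RASA3 was at −0.00 over FIGLA-less cells among those with 200 to 3000 genes.

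Checkpoint and death genes differed little as lists. Of 11 checkpoint genes 1 was higher than in FIGLA-less cells and none was lower, at a median of −0.31. That was TP63, which guards the genome of resting oocytes, at 24.2 CPM (19.8–29.4) beside 5.58, and at 67.5 in oocytes, with 13.8 beside 3.73 and 26.9 beside 7.25 in the endings. The kinase CHEK2, upstream of TP63 in oocyte death, was at 10.1 CPM beside 18.1. None of 11 apoptosis genes reached 2-fold in either direction, at a median of −0.23. BBC3, which encodes PUMA, had 17.9 CPM beside 5.17, and 4.58 beside 3.73 within ending 1. BAX had 63.7 beside 46.5.

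Some genes of the cell cycle were lower. Of 14 genes of S phase and mitosis none was higher and 4 were lower, at a median of −0.65, and the sum was 1351 CPM beside 2378. MKI67, the marker of cycling cells, had 56.4 CPM beside 203 in FIGLA-less meiotic cells, 20.7 in oocytes and 287 in premeiotic cells. Its levels were 89.4 beside 171 within ending 1 and 47.9 beside 231 within ending 2. TOP2A, the DNA topoisomerase, had 399 beside 926, the replicative helicase subunit MCM6 66.5 beside 171, and CCNA2, or cyclin A2, 16.2 beside 52.8. TOP2A was 715 beside 1068 within ending 1 and 317 beside 798 within ending 2. Of 9 genes of meiotic arrest and the cell cycle none was higher and 1 was lower, at a median of −0.52. That was CCNB3, or cyclin B3, at 67.0 CPM beside 148.0, and at 51.9 in oocytes. CCNA2 was on the higher side among cells with 200 to 3000 genes (log2 ratio 0.89) and with cells thinned to 1000 UMIs (0.20).

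Beyond the lists, 169 genes were at least 2-fold higher than in FIGLA-less meiotic cells and 142 at least 2-fold lower, and 165 and 140 of these (1.92% and 1.63% of all compared) had the same direction within both endings. Most of those leading the higher side were still higher in oocytes. LDHAL6A, a lactate dehydrogenase known from the testis, had 379 CPM beside 10.8 in FIGLA-less cells and 998 in oocytes, and was 141 beside 2.01 and 440 beside 18.6 in the endings. CCDC146 was 153 beside 11.3, with 995 in oocytes. The interferon-induced MX1 was 390 beside 63.3, with 978 in oocytes, but AMHR2+ cells also had 258. PNLDC1, which trims piRNAs, was 88.4 beside 10.6, with 172 in oocytes, and the splicing factor ESRP1 was 83.2 beside 6.26, with 191. VWF and CSF1R, known from endothelium and macrophages, were 127 beside 9.39 and 24.2 beside 2.45, and oocytes had 675 and 399. With only cells of up to 10% mitochondrial UMIs CSF1R was on the lower side (−0.24). The listed endothelial markers, VWF not among them, summed to 123 CPM beside 137 and were mostly EGFL7, at 103 beside 117. AMHR2+ cells had 41.2. PECAM1 was at 11.1 CPM beside 9.39, CDH5 at 0.705 and CLDN5 at 0. Of the macrophage markers other than CSF1R, C1QB had the most, at 5.64 CPM beside 3.13, TYROBP was at 0.705 and C1QA at 0.

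MT1X, a metallothionein whose reads can be shared with close copies, had 156 CPM beside 14.01, and 1928 in oocytes. The 5 cells with the most held 85.6% of its UMIs, and the median cell held 0. Its level therefore describes a few cells. The 31 cells between 2.5 and 5 of the maternal genes in every 10000 had 530 CPM. On the lower side TUBB2B, a neuronal tubulin, had 15.04 CPM beside 117, ASB9 had 3.76 beside 59.6, KISS1, the kisspeptin gene, 27.03 beside 143, and the cold-shock gene RBM3 67.0 beside 238.

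Of the genes furthest above oocytes, RAD51AP2 was 88.0-fold (71.7–109) higher. SPDYA, an activator of cyclin-dependent kinases at meiotic telomeres, had 231 CPM beside 2.66 in oocytes, SHCBP1L 157 beside 4.86, and WDR87 99.7 beside 1.62. On the lower side DBH, dopamine beta-hydroxylase, had 2.59 CPM beside 211 in oocytes, the importin KPNA7 of eggs 32.4 beside 499, NINJ2 25.6 beside 500 and PCCA, a subunit of a mitochondrial carboxylase, 108 beside 1242.

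The levels of FIGLA+ meiotic cells can be put on 1 scale, with 0 at the log2(CPM + 10) of FIGLA-less meiotic cells and 1 at that of oocytes. The scale compares pooled groups, and an order in time was not tested. Of the genes at least 4-fold apart between those groups, 261 were higher in oocytes, and FIGLA+ meiotic cells stood at a median of 0.265 (quartiles 0.133 and 0.420). Below 0.25 were 125 of them, and 12 were above 0.75. The 177 genes lower in oocytes stood at a median of 0.236 (0.135 and 0.425), and 5 were above 0.75. Within ending 2 the medians were 0.268 and 0.216. Most genes were thus nearer to the FIGLA-less meiotic level in either direction. Both meiotic groups had to hold at least 2 UMIs of SYCP1 and to lie under the maternal limit, which the oocytes did not. The choice of groups therefore enters this position, and it describes them only.

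SOHLH1 (1.03) and NOBOX (0.841) were at the oocyte end of that scale, with CCDC88C (0.872), MYOF (0.824), NFATC1 (0.784) and LDHAL6A (0.755). LHX8 (0.687), TBPL2 (0.651), UCHL1 (0.572) and ZP2 (0.547) lay past the middle, and JAG1 (0.358) and the oocyte kinase WEE2 (0.361) before it. PADI6 (0.0635) and ZP4 (0.0161) were at the meiotic end. Among genes lower in oocytes, the pooled levels of SPO11 (−0.0553), HORMAD1 (−0.0325) and SYCP3 (0.0782) were near those of FIGLA-less meiotic cells, SYCE3 stood at 0.299, and MKI67 (0.602) and REC8 (0.634) were further along.

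Levels also varied with the amount of FIGLA among meiotic cells. Meiotic cells below the maternal limit with at least 2 UMIs of SYCP1, whatever their FIGLA count, were divided by FIGLA in every 10000 UMIs into 692 cells at 0, 266 up to 5, 75 from 5 to 10 and 24 above 10, with median depths of 6564.5, 15754, 14562 and 6874 UMIs. The 266 and the 75 include cells with 1 UMI of FIGLA, 151 in all, which the rule of the FIGLA+ meiotic cells leaves out. NOBOX went from 0.136 CPM through 3.75 and 48.7 to 107 across these bins. Within ending 1 it was 0.287, 0.773, 60.5 and 75.1, and within ending 2 it was 0, 4.94, 46.0 and 116. The step between the second and the third bin was thus present in both endings.

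DND1 went from 57.1 CPM through 161 and 322 to 576, PIWIL4 from 1.36 through 6.18 and 42.6 to 82.7, and TP63 from 5.58 through 10.6 and 31.7 to 62.1. SOHLH1 went from 2.59 through 28.0 and 77.4 to 110. LHX8 was highest in the third bin, at 99.8 CPM, and 79.3 in the last. Summed, the maternal-effect genes went from 491 CPM through 504 and 994 to 1258, but PADI6 among them stayed between 3.81 and 10.3. ZP2 was 30.2 CPM in the third bin and 10.3 in the last, where it came to 3 UMIs.

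Several recombination genes were lower at high FIGLA. PRDM9 went from 22.6 CPM through 15.4 and 0.774 to 0 UMIs, which allows up to 10.3 CPM in that bin (3 counts), and DMC1 from 39.3 through 28.9 and 5.42 to 0. SPO11 went otherwise: it was 70.1 CPM without FIGLA, 104 up to 5, 47.2 from 5 to 10 and 37.9 above 10, and ending 2 alone gave 75.9, 113, 48.8 and 35.8. SYCE3 was 1131, 781, 302 and 276 CPM, while SYCP3 was 1368, 1572, 857 and 907. RAD51AP2 went from 2041 and 2037 to 503 and 121. DAZL stayed between 200 and 212 in all 4 bins. SPO11 was therefore above its FIGLA-less level at low FIGLA and below it at high FIGLA.

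**Figure D4:**
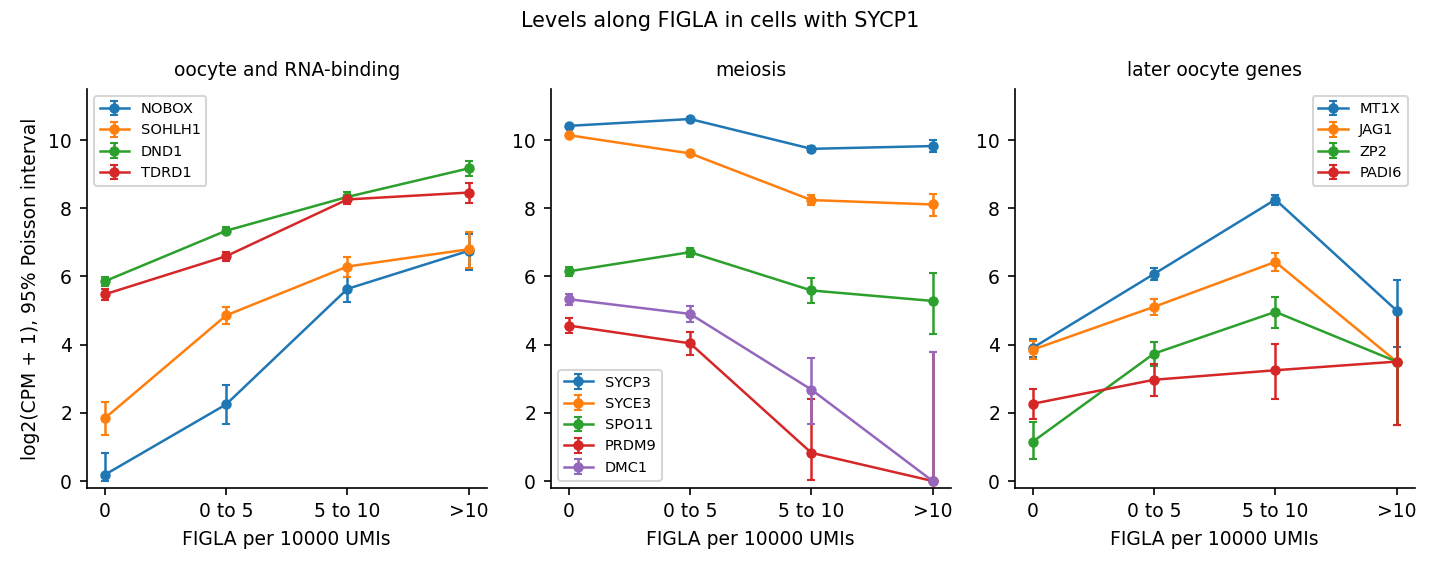
Levels as log2(CPM + 1) in meiotic cells divided by FIGLA UMIs in every 10000 (0, up to 5, 5 to 10 and above 10, with 692, 266, 75 and 24 cells). The 3 panels show oocyte factors together with RNA-binding genes, prophase genes, and later oocyte genes (MT1X, JAG1, ZP2 and PADI6). Bars give the 95% Poisson interval of the summed UMIs. NOBOX and DND1 were higher in each successive bin (NOBOX 0.136 to 107 CPM), while PRDM9 and DMC1 reached 0 UMIs in the last.

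Some of these values differed with depth among the FIGLA+ meiotic cells. The 41 cells with up to 3000 detected genes (median 4346 UMIs) had 55.4 CPM of SPO11, 30.2 of NOBOX, 55.4 of SOHLH1, 252 of DND1 and 625 of SYCE3. The 173 cells above 3000 genes (median 21736 UMIs) had 79.4, 25.1, 56.5, 267 and 411. NOBOX, SOHLH1 and DND1 were close between them, whereas SPO11 was lower and SYCE3 higher in the shallow cells. ZP2 was 5.04 CPM in the shallow and 23.7 in the deep cells, JAG1 25.2 and 60.4, and FIGLA itself 710 and 432.

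Stroma markers and some granulosa markers were lower in FIGLA+ than in FIGLA-less meiotic cells. All 7 stroma genes compared were at least 2-fold lower, at a median of −1.29, with a sum of 367 CPM beside 1143, and 3076 in AMHR2+ cells. Of 5 granulosa genes 3 were lower, and the 10 in the list summed to 190 CPM beside 278, and 1005 in AMHR2+ cells. COL1A1, a collagen, had 94.3 CPM beside 338, and its 5 highest cells held 45.6% of it. FOXL2, the transcription factor that defines granulosa cells, was at 0.235 CPM. The erythroid genes summed to 69.8 CPM beside 1610, and 5 FIGLA-less cells held 89.4% of that group's HBB. Macrophage genes, pooled, went the other way, with a sum of 32.2 CPM beside 20.0, most of it CSF1R. The log2 ratio of that sum was 0.69 pooled, but −0.06 within ending 1 and 0.29 within ending 2. Of 3 surface epithelium and pericyte genes compared none reached 2-fold, and the list summed to 179 beside 281.

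Some stress genes were lower as well. Of 8 immediate early genes, which dissociation of tissue is known to switch on, 4 were lower and none was higher, at a median of −0.97. FOS had 296 CPM beside 862, and 3133 in AMHR2+ cells, and EGR1 had 177 beside 566, and 1981. The stroma sum went from 1143 CPM without FIGLA through 587 and 166 to 234 along the FIGLA bins. The part of this somatic RNA in the lower genes was not tested, except that without the cells richest in it EGR1, FOSB, NR4A1 and DCN turned to the higher side (log2 ratios of 0.10 to 0.75). The share of mitochondrial UMIs had a median of 14.2% in the FIGLA+ meiotic cells.

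**Figure D5:**
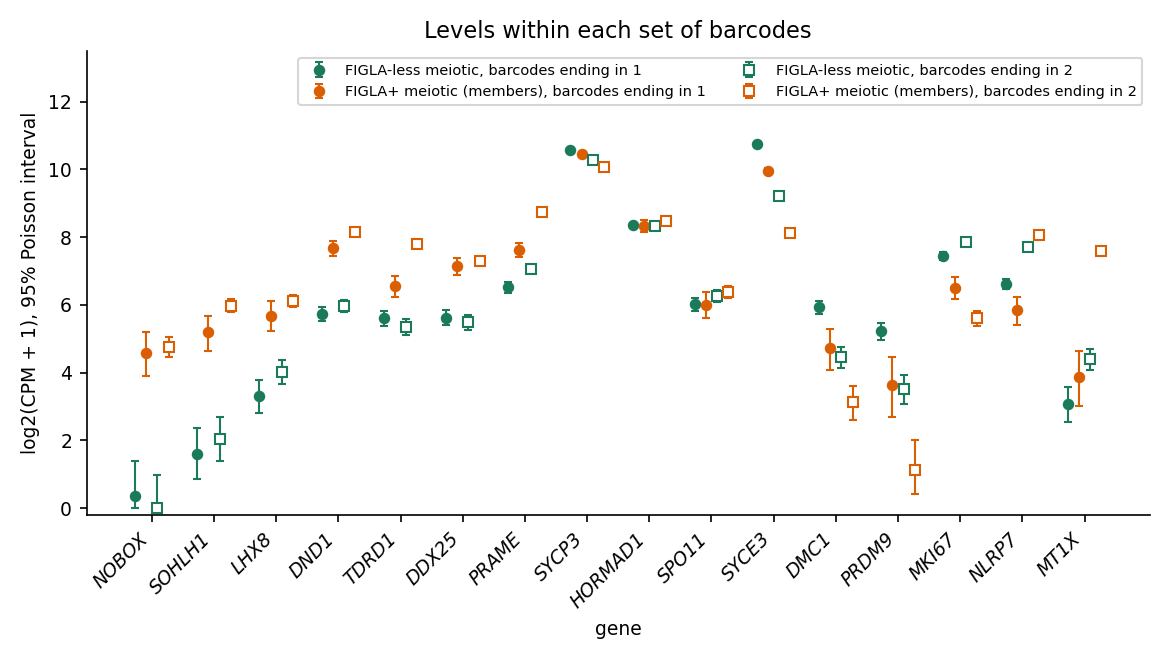
Levels as log2(CPM + 1) of 16 genes in FIGLA+ and FIGLA-less meiotic cells, drawn separately for barcodes ending in 1 (68 FIGLA+ and 416 FIGLA-less cells) and in 2 (the other FIGLA+ cells and 276 FIGLA-less ones), with bars for the 95% Poisson interval. NOBOX, SOHLH1 and DND1 were higher in FIGLA+ cells within both endings, and SPO11 was alike within both.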

How the data were processed

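Single-cell RNA of dissociated ovaries was counted on 10x Chromium 3′ libraries (version 3 chemistry). The authors deposited 1 table of raw UMI counts per gene and cell for both libraries (18446 genes, 20967 cells). The submitters' processing notes name Cell Ranger 3.0.2 and Seurat, and the genome build Macaca_fascicularis_5.0. The study's stated filter keeps cells with 200 to 3000 detected genes, but the table also holds 4675 cells above 3000. That filter would drop 173 of the 214 FIGLA+ meiotic cells, which were kept here, and its effect is given as an alternative. Doublet removal is not given in the sources used here. The median cell had 3756 UMIs.

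Counts were summed per group with Python 3.11.15, numpy 2.4.6, pandas 2.3.3 and scipy 1.17.1, and Scrublet was run in scanpy 1.11.5. CPM carry exact Poisson intervals, ratios exact conditional binomial intervals and shares exact binomial intervals, all at 95%. Cells are not replicates, so no p-value was computed. A gene was compared when its mean over both groups reached 10 CPM, and called when the groups differed by at least 2-fold with 10 CPM added. Ratios and folds printed with an interval carry no added CPM. The 5 genes of the rule are in none of the lists.

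The cells and lists were chosen with earlier results of these data known. Genes are named from the lists, from the 12 highest and 12 lowest ratios of a comparison (at least 30 UMIs, the same direction within endings with at least 10 cells of both groups) and from the 15 with a symbol that were highest in FIGLA+ meiotic cells; the counts of genes with at least 10 CPM in both groups, values for VWF and CSF1R markers and for cells next to the limits were added after values were seen. In simulated counts for the comparison of FIGLA+ with FIGLA-less meiotic cells (8586 genes, 200 changed 4-fold), 95.8% of intervals held the true value, 87.0% of changed genes and 0% of the others were called. The simulated sums were Poisson counts, the model behind the intervals, without variation between cells or endings. They therefore check the calculation only and cannot show how intervals or calls fare under such variation. Sequences and coordinates were not used here, and genes missing by symbol (ZP3, SOHLH2, POU5F1, MSH5) were not analysed here.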

Additional observations from a re-analysis of the deposited data

Results flagged for a closer look

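NLRP7, a gene of the egg's maternal complex, went opposite ways in the barcode endings. Its log2 ratio of FIGLA+ over FIGLA-less meiotic cells was −0.79 for barcodes ending in 1 (56.2 CPM beside 96.9) and 0.35 for barcodes ending in 2 (266 beside 208). The difference between the endings was not tested.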

How the results depend on the processing

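Values moved most with the choice of cells. No paired analysis was possible because the columns carry no sample and there is 1 sample per stage. Ending 1 held 3 oocytes and gave no comparison with them. Changed limits of UMIs of FIGLA and SYCP1 applied to the comparison groups as well. Counting from 1 UMI of FIGLA and of SYCP1 gave 468 cells, 29 genes highest in them, and log2 ratios of summed recombination genes of 0.46 (reversed, against −0.53) over FIGLA-less cells and 2.40 over oocytes, and of zona genes of −2.84 over oocytes. From 3 UMIs these were −1.0 (recombination, over FIGLA-less cells) and −2.72 (zona, over oocytes). With a maternal limit of 2.5, recombination was −0.35 and 2.25 and zona −2.76 over oocytes, and with a limit of 10 recombination was −0.68 and 2.11. Cells with 200 to 3000 genes were 41, with 291 genes higher and 675 lower than in FIGLA-less cells, 1067 lower than in oocytes, 50 highest, recombination −1.18 and 1.69, and zona 1.87 and −4.16. Cells with up to 10% mitochondrial UMIs were 46, with 241 lower than in FIGLA-less cells, 1827 higher and 1111 lower than in oocytes, 39 highest, recombination −0.11 and 2.62, and zona 0.38 and −5.13. Ending 1 alone gave 68 cells, 98 higher genes, recombination −0.27 and zona 1.00. Ending 2 alone gave 239 lower genes, 25 highest, recombination −0.30 and 1.97, and zona −2.12 over oocytes. Without the highest Scrublet scores 228 genes were lower and recombination was −0.62. Without the cells richest in somatic RNA recombination was −0.90 and zona −2.11 over oocytes. At matched depth 7 genes were highest and recombination was −0.66 and 1.95. As a mean of cells' CPM 8 were highest, recombination was −0.68, and zona 1.95 and −3.15. Thinned to 1000 UMIs, 404 genes were higher and 421 lower than in FIGLA-less cells, 1024 lower than in oocytes, 72 highest, recombination −0.75 and 2.08, and zona 2.11 and −3.04. With 1 CPM added, 320 were higher and 394 lower than in FIGLA-less cells, 1642 higher than in oocytes, and 44 highest.

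Single genes reversed as follows. Over FIGLA-less cells, with 200 to 3000 genes, CCNA2 was 0.89, CRYGC 0.73, REC8 0.49, RFX6 0.19 and RASA3 −0.00. Without cells rich in somatic RNA FOSB was 0.75, NR4A1 0.50, IRX3 0.37, TOX3 0.21, DCN 0.15 and EGR1 0.10. RAD51AP2 was 0.43 from 1 UMI, CSF1R −0.24 with up to 10% mitochondrial UMIs and CCNA2 0.20 thinned. Over oocytes, CCNA2 was 0.46 and KITLG −0.13 with 200 to 3000 genes, CCNA2 0.02 at matched depth, CAPRIN2 −0.12 with up to 10% mitochondrial UMIs, KITLG −0.02 without somatic RNA, and KISS1 −0.13 and KITLG −0.39 thinned. Leaving out the shared barcodes, an alternative chosen after seeing the data, moved 0 of 420 values. The cause of these shifts was not tested.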
